A study of Homo sapiens with 2 samples.

Results

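The genes described here are 4 RAS GTPases (NRAS, HRAS, RRAS and RRAS2) and 5 genes for RAS GTPase-activating proteins, or GAPs (NF1, RASA1, RASA2, RASAL2 and DAB2IP). They were chosen by name and are 9 of the 26485 genes in the deposited count table. Their RNA was measured in SK-LMS-1 and SK-UT-1, which are established human leiomyosarcoma lines, from tumours of smooth muscle lineage, a vulvar tumour for SK-LMS-1 and a uterine one for SK-UT-1. Both lines received the solvent DMSO alone, and each gave 1 total RNA library. The series belongs to a study of combined SUV39H2 and PARP inhibition in uterine leiomyosarcoma, and the question open to these libraries is how the pathway's genes differ between these cell models with solvent alone.

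RAS proteins are small membrane-bound switches that are active with GTP and inactive with GDP. Exchange factors such as SOS1 load them with GTP after receptor activation, and GAPs speed up GTP hydrolysis and so switch them off. Active RAS drives the RAF-MEK-ERK kinase cascade and phosphoinositide 3-kinase. In smooth muscle cells, this signalling downstream of growth factor receptors accompanies the shift from a contractile to a proliferative state.

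The GTPases are anchored to membranes through lipids attached to their C-terminal ends, and these ends are where their coding sequences differ in a way that decides which lipids are added. The last 75 coding bases before each stop codon are shown, as annotated in GENCODE release 29 on GRCh38. Capitals mark the 12 bases of the final 4 codons, the CAAX motif, whose first codon encodes the cysteine that receives a farnesyl or geranylgeranyl group. All 4 genes lie on the minus strand, and each stretch lies within 1 exon.
NRAS, chr1:114708538-114708612: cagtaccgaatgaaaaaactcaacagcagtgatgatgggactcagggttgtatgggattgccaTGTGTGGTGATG
HRAS, chr11:532639-532713: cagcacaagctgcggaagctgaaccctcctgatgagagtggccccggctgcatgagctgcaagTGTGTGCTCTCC
RRAS, chr19:49635579-49635653: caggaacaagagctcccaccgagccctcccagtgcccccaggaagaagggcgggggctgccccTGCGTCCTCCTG
RRAS2, chr11:14279340-14279414: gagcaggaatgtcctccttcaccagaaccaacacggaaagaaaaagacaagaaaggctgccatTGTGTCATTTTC

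Ahead of the capitals, the NRAS and RRAS stretches hold 1 further cysteine codon each, and the HRAS and RRAS2 stretches hold 2 each. Cysteines close to the CAAX motif are known palmitoylation sites in NRAS and HRAS. Lysine codons numbered 2 in NRAS, 3 in HRAS, 2 in RRAS and 4 in RRAS2. The full coding sequences were 189 codons long in NRAS and HRAS, 218 in RRAS and 204 in RRAS2. Aligned end to end, NRAS and HRAS were identical at 73.7% of aligned coding bases and RRAS and RRAS2 at 67.9%, while the other 4 pairs lay between 63.1% and 67.4%. The longest run of bases shared by any pair of the 4 GTPase transcripts was 23, between RRAS and RRAS2. No stretch of 50 bases is therefore common to any pair of these paralogs.

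The libraries held 6906280 counts in SK-LMS-1 against 7635850 in SK-UT-1, with at least 1 count for 16383 genes in SK-LMS-1 against 16741 in SK-UT-1. Of 10 smooth muscle markers, 9 reached 1 CPM (counts scaled to a common library size by TMM, the trimmed mean of M values) in the higher library, and their summed level was 1468 CPM in SK-LMS-1 cells against 529 CPM in SK-UT-1. CALD1, SMTN and MYLK, which act in the contractile apparatus, led them in SK-LMS-1 with 4905, 1418 and 2710 counts, against 2761, 879 and 80 in SK-UT-1. TAGLN, CNN1 and ACTG2 had 405, 64 and 39 counts in SK-LMS-1, against 43, 20 and 0 in SK-UT-1. ACTA2 had 69 counts in SK-LMS-1 against 435 in SK-UT-1. The defining late markers were near absent: DES, MYH11 and LMOD1 had 1, 5 and 4 counts in SK-LMS-1, against 26, 2 and 10 in SK-UT-1. The leukocyte marker PTPRC had 0 counts in both lines, and CD68 (602 counts in SK-LMS-1 against 117 in SK-UT-1) made up nearly all of that list's level. The endothelial list summed to 1.53 CPM in SK-LMS-1 cells against 0 in SK-UT-1, with PECAM1 its highest gene at 8 counts in SK-LMS-1 against 0 in SK-UT-1. The epithelial list summed to 101 CPM in SK-LMS-1 cells against 48.0 CPM in SK-UT-1. KRT18 made up most of that SK-LMS-1 level, at 73.3 CPM, with 480 counts there and 85 in SK-UT-1. KRT19, the highest gene of the list in SK-UT-1, went the other way, with 65 counts in SK-LMS-1 against 155 in SK-UT-1. Of the 5 epithelial markers measured, 2 passed 2-fold towards SK-LMS-1, 1 passed it towards SK-UT-1 and 2 lay within 2-fold.

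Of the 9 RAS GTPase and GAP genes, all were measured, meaning at or above 1 CPM in the higher library, and 3 differed by at least 2-fold. RRAS and RASA1 were higher in SK-LMS-1, NF1 was higher in SK-UT-1, and the other 6 lay within 2-fold. Among all 14324 measured genes, 21.9% passed 2-fold towards SK-LMS-1, meaning they were higher there, and 18.3% passed it towards SK-UT-1. The 2 of 9 and 1 of 9 genes seen here lie near those shares. The median log2 ratio, SK-LMS-1 over SK-UT-1, was 0.01 over the 9 genes and 0.01 over all measured genes. NF1 also passed 4-fold towards SK-UT-1, as did 7.30% of measured genes. With 1 library per line no test was possible, so the ratios compare these libraries. The 95% intervals cover counting error only and take reads as independent molecules, which amplified reads are not, and fewer cells with a transcript cannot be told apart from less of it per cell.

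**Figure D1:**
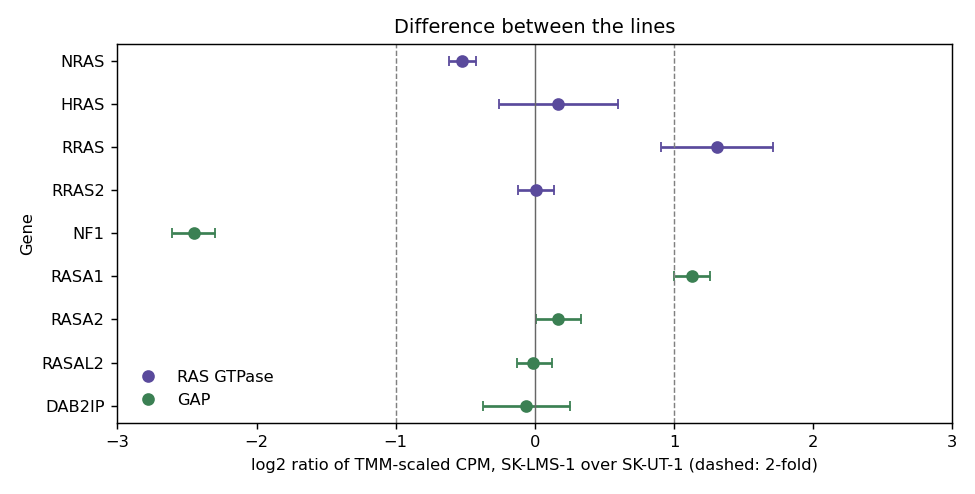
Points give the log2 ratio of TMM-scaled CPM, SK-LMS-1 over SK-UT-1, for each gene, with exact 95% intervals for counting error, and dashed lines mark 2-fold. NF1 lies alone on the left at -2.45, RRAS at 1.31 and RASA1 at 1.13 lie just right of the 2-fold line, and 6 genes lie between the lines.

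Among the GTPases, NRAS, a classical RAS protein that is palmitoylated and farnesylated, had 1207 counts in SK-LMS-1, or 184 CPM, against 2126 in SK-UT-1, or 264 CPM. SK-UT-1 was higher by 1.43-fold (95% interval 1.34 to 1.54), a log2 ratio of -0.52 (-0.62 to -0.42). The gene spans chr1:114704464-114716894 on the minus strand of hg38.

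HRAS, also a classical RAS protein, spans chr11:532242-535550 on the minus strand and was the GTPase gene with the fewest reads in SK-LMS-1. It had 88 counts in SK-LMS-1, or 13.4 CPM, against 96 in SK-UT-1, or 11.9 CPM. The ratio was 1.13 (0.833 to 1.52), an interval that includes equality and, at this depth, leaves differences of up to 1.52-fold towards SK-LMS-1 or 1.20-fold towards SK-UT-1 undetectable. The count itself is uncertain, because the annotation also lists HRAS in full on 1 alternate contig and reads that map to both copies may not have been counted.

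RRAS, which acts in integrin-mediated adhesion, spans chr19:49635292-49640143 on the minus strand. It had 161 counts in SK-LMS-1, or 24.6 CPM, against 80 in SK-UT-1, or 9.94 CPM. SK-LMS-1 was higher by 2.47-fold (1.88 to 3.27), so the lower end of the interval falls short of 2-fold.

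RRAS2, also called TC21 and able to engage phosphoinositide 3-kinase, spans chr11:14277920-14364506 on the minus strand. It had 863 counts in SK-LMS-1, or 132 CPM, against 1055 in SK-UT-1, or 131 CPM. Its log2 ratio was 0.01 (-0.12 to 0.14), an interval that does not overlap that of RRAS (0.91 to 1.71). Of the 50-base windows of the RRAS2 transcript, 18.2% also occur in transcripts annotated to other genes, AL445183.3 and SCP2, and reads from those windows may be missing from its count. That GENCODE transcript has 1516 bases and the counted exons have 2752, so the percentage does not describe the whole counted region.

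The largest ratio in the set was that of NF1, which encodes neurofibromin, the GAP lost in neurofibromatosis. NF1 spans chr17:31094927-31377677 on the plus strand. It had 383 counts in SK-LMS-1, or 58.5 CPM (52.7 to 64.6), against 2574 in SK-UT-1, or 320 CPM (308 to 332). SK-UT-1 was higher by 5.47-fold (4.91 to 6.11), a log2 ratio of -2.45 (-2.61 to -2.30). The whole interval lay past 2-fold, and NF1 was the only gene of the 9 of which that was so. Windows of 50 bases shared with other annotated genes, chiefly NF1 pseudogenes, made up 3.18% of its transcript.

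RASA1, the p120 GAP that binds activated receptors through SH2 domains, spans chr5:87268253-87391926 on the plus strand. It had 1363 counts in SK-LMS-1, or 208 CPM, against 767 in SK-UT-1, or 95.3 CPM, which is opposite in direction to NF1. SK-LMS-1 was higher by 2.18-fold (from just under 2 to 2.39), with a log2 ratio of 1.13. That ratio was 0.97 when libraries were scaled by their totals and 0.99 with upper-quartile scaling, both just under 2-fold. CCNH transcripts hold 6.40% of the 50-base windows of RASA1.

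The other 3 GAP genes were nearly level between the lines. RASA2, of the GAP1 family, spans chr3:141487047-141615363 on the plus strand and had 611 counts in SK-LMS-1, or 93.2 CPM, against 667 in SK-UT-1, or 82.9 CPM (1.13-fold, 1.01 to 1.26). RASAL2, a GAP of the SynGAP family, spans chr1:178093729-178479513 on the plus strand and had 937 counts in SK-LMS-1, or 143 CPM, against 1158 in SK-UT-1, or 144 CPM (0.994-fold, 0.911 to 1.08). RASAL2-AS1 covers 2.40% of its exons on the opposite strand. DAB2IP, a scaffold of the same family, spans chr9:121567102-121785530 on the plus strand and had 161 counts in SK-LMS-1, or 24.6 CPM, against 206 in SK-UT-1, or 25.6 CPM (0.960-fold, 0.776 to 1.19). The intervals of RASAL2 and DAB2IP included equality, and that of RASA2 just missed it. That miss depends on the scaling: the RASA2 log2 ratio was 0.17 with TMM, 0.02 with library totals and 0.04 with upper-quartile scaling.

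Levels were compared between genes as TPM, the transcript-per-million unit, which divides counts by exon length and gives every library the same sum. Folds between lines were taken from CPM, and TPM was used for the order of genes within a line. TPM is not scaled by TMM, so pairs of TPM values from the 2 lines are not folds. RRAS2, for example, had 133 TPM in SK-LMS-1 against 148 in SK-UT-1, but 132 CPM against 131. In SK-LMS-1 the order was RRAS2 at 133 TPM, RASA1 at 130, NRAS at 115, RRAS at 69.4, RASA2 at 45.9, RASAL2 at 36.1, HRAS at 15.2, NF1 at 12.3 and DAB2IP at 11.3 TPM. In that line, neighbours whose counting intervals overlapped were RRAS2 (125 to 142) with RASA1 (123 to 137), HRAS (12.2 to 18.7) with NF1 (11.1 to 13.6), and NF1 with DAB2IP (9.58 to 13.1). In SK-UT-1 the order was NRAS at 184 TPM, RRAS2 at 148, NF1 at 74.9, RASA1 at 66.5, RASA2 at 45.6, RASAL2 at 40.5, RRAS at 31.3, HRAS at 15.0 and DAB2IP at 13.1 TPM. There the overlapping neighbours were RASA2 (42.2 to 49.1) with RASAL2 (38.2 to 42.9), RASAL2 with RRAS (24.8 to 39.0), and HRAS (12.2 to 18.3) with DAB2IP (11.3 to 15.0). NF1 ranked 8 of the 9 genes in SK-LMS-1 but 3 in SK-UT-1. The HRAS exon length in the table counts both of its annotated copies, and with the main chromosome alone its level was 30.3 TPM in SK-LMS-1 cells against 30.0 TPM in SK-UT-1. By point value its place in both orders stays the same at that level. In SK-UT-1, however, it then lies inside the RRAS interval, so the order of these genes is not resolved there. In SK-LMS-1 the next gene above it is RASAL2, and whether their intervals overlap at that length is not given here. The overlaps of HRAS with NF1 and with DAB2IP given above rest on the doubled length.

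**Figure D2:**
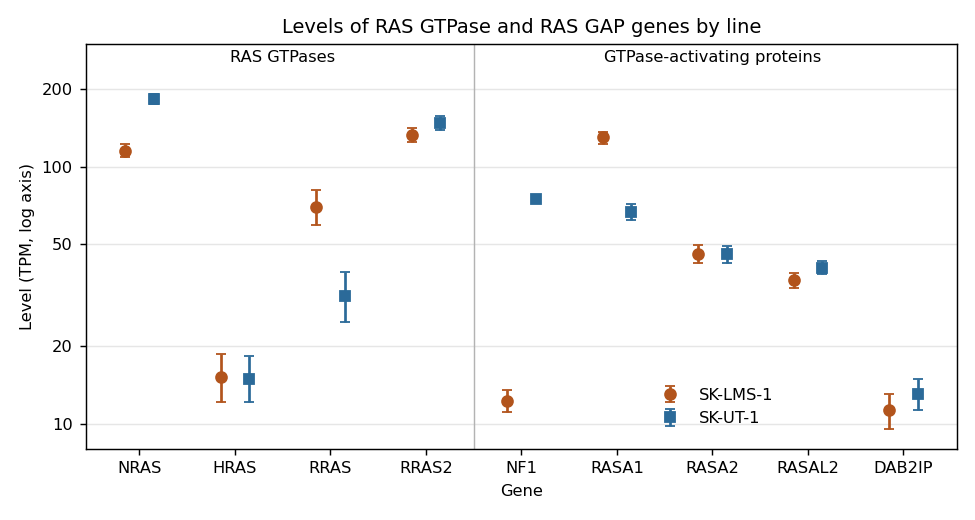
Levels in TPM on a log axis for the 4 GTPase genes and the 5 GAP genes, with SK-LMS-1 as circles and SK-UT-1 as squares, and bars for exact 95% counting intervals of 1 library per line. NF1 lies at 12.3 TPM in SK-LMS-1 cells against 74.9 TPM in SK-UT-1, and RASA1 at 130 TPM in SK-LMS-1 cells against 66.5 TPM in SK-UT-1, whereas RASA2, RASAL2 and DAB2IP sit nearly level.

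The summed level of the 5 GAP genes was 236 TPM in SK-LMS-1 cells against 241 TPM in SK-UT-1, but its makeup differed. RASA1 made up 55.2% of the sum in SK-LMS-1 against 27.7% in SK-UT-1. NF1 made up 5.21% in SK-LMS-1 against 31.1% in SK-UT-1. RASA2, RASAL2 and DAB2IP held 19.5%, 15.3% and 4.77% in SK-LMS-1, against 18.9%, 16.8% and 5.43% in SK-UT-1. Without division by exon length, NF1 held 11.1% of GAP counts in SK-LMS-1 against 47.9% in SK-UT-1. RASA1 then held 39.5% in SK-LMS-1 against 14.3% in SK-UT-1. The contrast in shares thus did not rest on the length correction. The near equality of the sums is not a fold, because TPM is not scaled by TMM. By CPM, which is TMM-scaled and not divided by length, the summed level of these genes was higher in SK-UT-1. The parts of length and of scaling in that change were not separated.

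The 4 GTPase genes summed to 333 TPM in SK-LMS-1 cells against 379 TPM in SK-UT-1, a pair of values that is likewise not a fold. NRAS made up 34.6% of the sum in SK-LMS-1 against 48.7% in SK-UT-1, and RRAS2 40.0% in SK-LMS-1 against 39.1% in SK-UT-1. RRAS made up 20.8% in SK-LMS-1 against 8.27% in SK-UT-1, and HRAS 4.55% in SK-LMS-1 against 3.97% in SK-UT-1. Without division by exon length, NRAS held 52.0% of GTPase counts in SK-LMS-1 against 63.3% in SK-UT-1, RRAS2 held 37.2% in SK-LMS-1 against 31.4% in SK-UT-1, and RRAS held 6.94% in SK-LMS-1 against 2.38% in SK-UT-1. The order of NRAS and RRAS2 in SK-LMS-1 thus depends on the length correction, as does the size of the RRAS share. With the main-chromosome length of HRAS, its share was 8.71% in SK-LMS-1 against 7.63% in SK-UT-1.

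**Figure D3:**
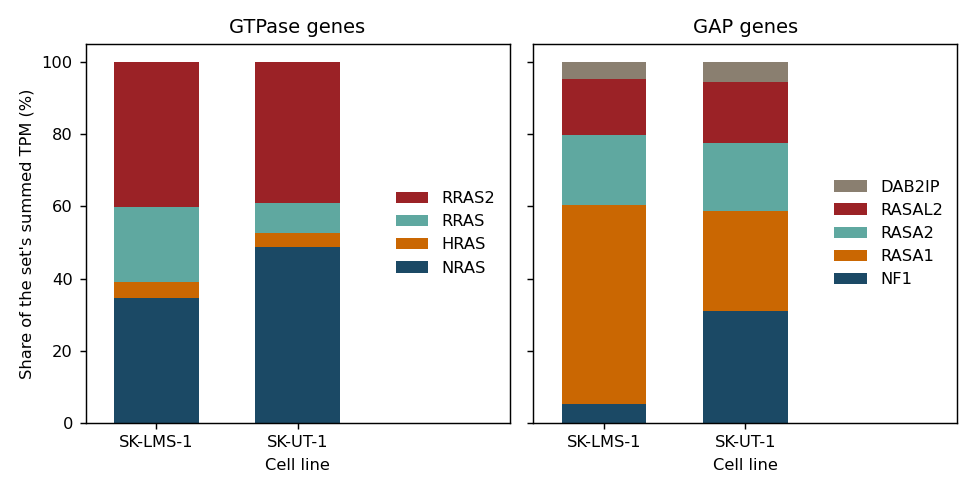
Stacked bars give each gene's percentage of the summed TPM of the 4 GTPase genes (left) and of the 5 GAP genes (right), in SK-LMS-1 and SK-UT-1, with 1 library each. The NF1 segment covers 5.21% of the GAP bar in SK-LMS-1 against 31.1% in SK-UT-1, and the RASA1 segment 55.2% in SK-LMS-1 against 27.7% in SK-UT-1.

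NF1 holds other genes inside its introns on the opposite strand, EVI2A, EVI2B and OMG, of which EVI2A and EVI2B were higher in SK-LMS-1, where NF1 was lower. EVI2A, a membrane protein gene first known as a viral integration site in mouse leukaemia, had 292 counts in SK-LMS-1 (44.6 CPM) and 0 in SK-UT-1. Against a floor of 3 counts in SK-UT-1, that is an excess of at least 120-fold in SK-LMS-1. The floor is no confidence limit, and the exact 95% interval for EVI2A begins at 96.6-fold. EVI2B had 37 counts in SK-LMS-1 (5.65 CPM) and 0 in SK-UT-1, an excess of at least 15.1-fold against the same floor, with an interval that begins at 11.7-fold. OMG, an oligodendrocyte myelin gene, had 0 counts in both lines. Strand setting 1 was used in the counting, and whether it fits the kit version is not stated, so the strand of these reads is uncertain. Any part of the nested genes' reads in the NF1 result was not tested.

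Around each of the 9 genes, the 5 nearest measured genes on each side were read off, with counts below 3 raised to 3. The 10 neighbours of NF1 had a median log2 ratio of -0.59 and ran from -4.07, for RAB11FIP4 with 0 counts in SK-LMS-1 against 62 in SK-UT-1, to 6.90 for EVI2A. Of these 10 genes, 3 were past 2-fold in SK-UT-1 (SUZ12P1 at -1.83, CRLF3 at -1.66 and RAB11FIP4), and 2 were past it in SK-LMS-1. The shares among all measured genes were 18.3% and 21.9%. Taking 10 genes on each side moved that median to -1.05. NF1 itself, at -2.45, lay below 9 of its 10 neighbours, as the neighbours' plot shows.

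The 10 neighbours of RASA1 had a median of 0.42. Of them, 4 (XRCC4, VCAN, EDIL3 and MEF2C) passed 2-fold towards SK-LMS-1, the direction of RASA1 itself, while 0 passed it towards SK-UT-1. Among all measured genes, 21.9% passed 2-fold towards SK-LMS-1. These 4 genes lay 1326315 to 3914493 bases from RASA1, and every neighbour closer than that was within 2-fold. VCAN, a proteoglycan gene, had 3435 counts in SK-LMS-1 against 0 in SK-UT-1. CCNH, the cyclin H gene next to RASA1, was at 0.42 with 598 counts in SK-LMS-1 against 548 in SK-UT-1. RRAS, at 1.31, lay above all 10 of its neighbours, which ran from -1.01 to 0.60 with a median of -0.26. The neighbours' medians were -0.12 for NRAS, -0.59 for HRAS, 0.59 for RRAS2, 0.06 for RASA2, -0.11 for RASAL2 and 0.46 for DAB2IP. With 10 genes on each side the median moved to -0.55 for RASAL2, 0.22 for DAB2IP and -0.10 for RRAS. Copy number was not measured in these libraries.

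**Figure D4:**
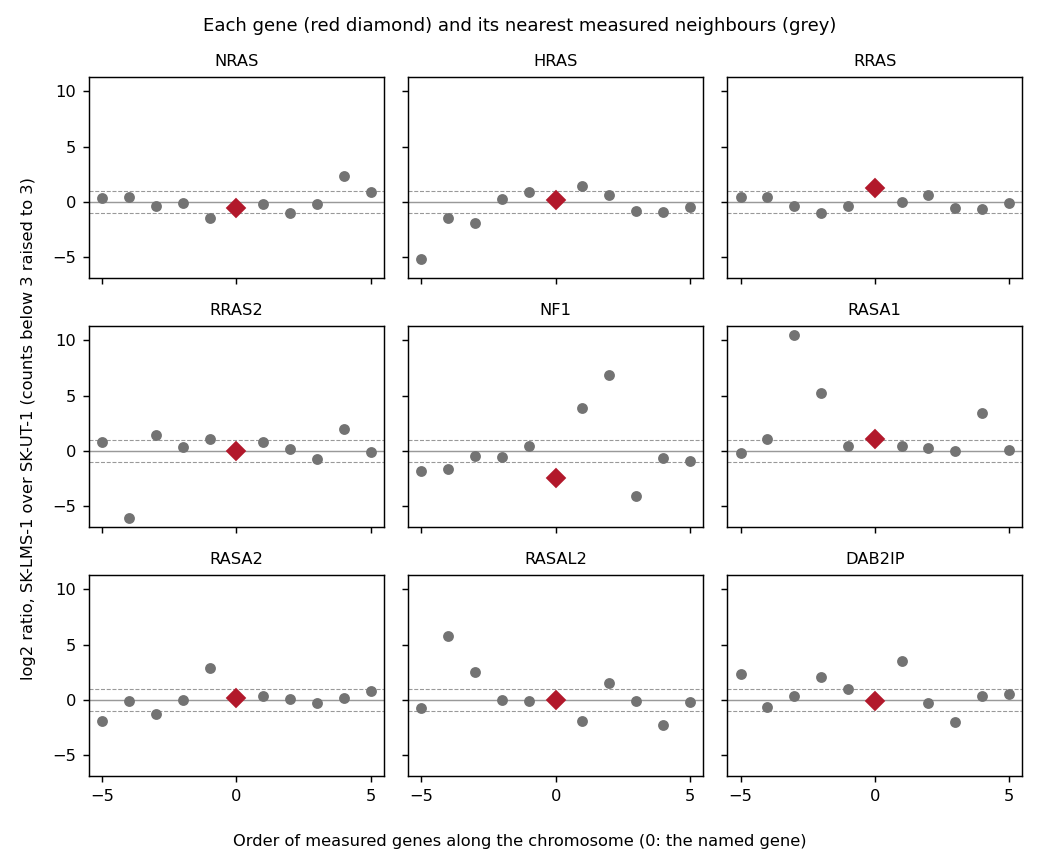
Each panel shows 1 gene (red diamond) with its 5 nearest measured genes on each side in chromosome order (grey), as log2 ratio, SK-LMS-1 over SK-UT-1, with dashed lines at 2-fold and counts below 3 raised to 3. RRAS at 1.31 lies above its 10 neighbours, and NF1 at -2.45 lies below its neighbours except RAB11FIP4, with EVI2A at 6.90 and EVI2B at 3.92 close by.

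Outside the 9 genes, 116 others of the RAS pathway were sorted into 9 lists by role, and 95 of them were measured. The higher line, by 2-fold or more, was SK-LMS-1 for 26 of these and SK-UT-1 for 12, while 57 differed by less, and the median log2 ratio was 0.20. These counts stand beside 21.9% and 18.3% of all measured genes, and so do the counts of each list below.

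Upstream of RAS, 4 of 8 exchange factor genes were measured, and 2 of them passed 2-fold, both towards SK-LMS-1. SOS1, the ubiquitous exchange factor, had 215 CPM in SK-LMS-1 cells against 147 CPM in SK-UT-1, a ratio of 1.47 (1.36 to 1.59). RASGRF2, a calcium-responsive exchange factor, had 105 counts in SK-LMS-1 against 0 in SK-UT-1, an excess of at least 43.0-fold against the floor of 3 counts, with an interval that begins at 34.4-fold. Of 12 receptor adaptor genes, all measured, 3 passed 2-fold towards SK-LMS-1 and 1 towards SK-UT-1. SHC3, a phosphotyrosine adaptor, had 392 counts in SK-LMS-1 against 58 in SK-UT-1 (8.30-fold, 6.29 to 11.1). GAB2, a docking protein, had 293 counts in SK-LMS-1 against 84 in SK-UT-1 (4.28-fold, 3.35 to 5.53). PTPN11, the phosphatase SHP2 that promotes RAS activation, had the highest TPM of the list, at 211 TPM in SK-LMS-1 cells against 312 TPM in SK-UT-1, and by CPM was 1.33-fold higher in SK-UT-1 cells (1.27 to 1.39).

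Among 29 other RAS family GTPase genes, 19 were measured, of which 3 passed 2-fold towards SK-LMS-1 and 7 towards SK-UT-1. RAP1B, which acts in adhesion, had the highest level, at 315 TPM in SK-LMS-1 cells against 209 TPM in SK-UT-1. RAP2C, a GTPase of the RAP branch, had 763 counts in SK-LMS-1 against 321 in SK-UT-1 (2.92-fold, 2.56 to 3.34), and GEM, an inhibitor of calcium channels, had 150 in SK-LMS-1 against 57 in SK-UT-1 (3.23-fold, 2.37 to 4.47). RASL12 had 0 counts in SK-LMS-1 against 75 in SK-UT-1, which exceeded SK-LMS-1 by at least 20.4-fold against the floor of 3 counts, with an interval that begins at 16.1-fold. RASL10B had 6 counts in SK-LMS-1 against 127 in SK-UT-1, a 17.2-fold difference (7.70 to 47.8).

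Of 9 other genes of the GAP family, 4 were measured and none was past 2-fold in either direction. IQGAP1, a scaffold that carries a GAP-related domain without GAP activity, had 905 CPM in SK-LMS-1 cells against 947 CPM in SK-UT-1. Other brakes on the pathway gave 9 measured of 10, with 2 past 2-fold towards SK-LMS-1 and 1 towards SK-UT-1. SPRED1, which binds neurofibromin and brings it to the membrane, had 1078 counts in SK-LMS-1, or 165 CPM, against 484 in SK-UT-1, or 60.1 CPM. SPRED1 thus exceeded SK-UT-1 levels by 2.74-fold (2.46 to 3.05) in SK-LMS-1, where NF1 itself was lower. ERBB2IP, whose product erbin can interfere with RAF activation by RAS, had 7137 counts in SK-LMS-1 against 2159 in SK-UT-1 (4.06-fold, 3.87 to 4.26).

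Downstream, all 11 genes of the RAF-MEK-ERK list were measured, and 10 of them lay within 2-fold. The exception was KSR2, a kinase scaffold, with 72 counts in SK-LMS-1 against 30 in SK-UT-1 (2.95-fold, 1.90 to 4.68). PPP1CB, a phosphatase subunit that acts with SHOC2 on RAF, was the most abundant of that list at 271 TPM in SK-LMS-1 cells against 320 TPM in SK-UT-1. Among 14 other effector genes, 13 were measured, with 5 past 2-fold towards SK-LMS-1 and 1 towards SK-UT-1. MLLT4, which encodes the junction protein afadin, had 1508 counts in SK-LMS-1 against 259 in SK-UT-1 (7.15-fold, 6.26 to 8.19). PIK3CD, a catalytic subunit of phosphoinositide 3-kinase, had 214 counts in SK-LMS-1 against 40 in SK-UT-1 (6.57-fold, 4.67 to 9.46). RASSF5, a RAS-binding protein also called NORE1, had 20 counts in SK-LMS-1 against 52 in SK-UT-1, an excess of 2.12-fold in SK-UT-1 (1.24 to 3.74).

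The list for lipid processing and trafficking of the C-terminal ends printed above holds enzymes together with carriers and cofactors such as PDE6D and GOLGA7. All 13 genes were measured, with 4 past 2-fold towards SK-LMS-1 and 1 towards SK-UT-1. RCE1, the protease that cuts after the CAAX cysteine, had 24 counts in SK-LMS-1 against 77 in SK-UT-1, an excess of 2.61-fold in SK-UT-1 (1.63 to 4.32). FNTB, the farnesyltransferase beta subunit, had 162 counts in SK-LMS-1 against 85 in SK-UT-1 (2.34-fold, 1.79 to 3.08), but 89.0% of its exon bases are shared with the read-through gene CHURC1-FNTB and its count is uncertain. ABHD17C, of a family that removes palmitate from NRAS, had 137 counts in SK-LMS-1 against 48 in SK-UT-1 (3.51-fold, 2.51 to 4.98). LYPLA1, another depalmitoylating enzyme, had 134 TPM in SK-LMS-1 cells against 176 TPM in SK-UT-1, and was the highest of the list in SK-UT-1 only.

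Of 10 MAPK output genes, which rise with ERK activity in many cells, all were measured. Of these, 6 passed 2-fold towards SK-LMS-1 and 1 towards SK-UT-1, beside 21.9% and 18.3% of all measured genes. The median log2 ratio was 1.32, against 0.01 over all measured genes. DUSP4, a phosphatase that acts on ERK, had 427 counts in SK-LMS-1 against 5 in SK-UT-1 (105-fold, 44.6 to 325), and SPRY2, an inhibitor of receptor signalling to RAS, had 211 in SK-LMS-1 against 4 in SK-UT-1 (64.8-fold, 24.9 to 240). CCND1, the cyclin D1 gene, had the highest level, at 548 TPM in SK-LMS-1 cells against 277 TPM in SK-UT-1. EPHA4, a receptor kinase, went the other way with 36 counts in SK-LMS-1 against 146 in SK-UT-1 (SK-UT-1 higher by 3.30-fold, 2.28 to 4.90). Phosphorylation and GTP loading were not measured, so these RNA levels do not give pathway activity.

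**Figure D5:**
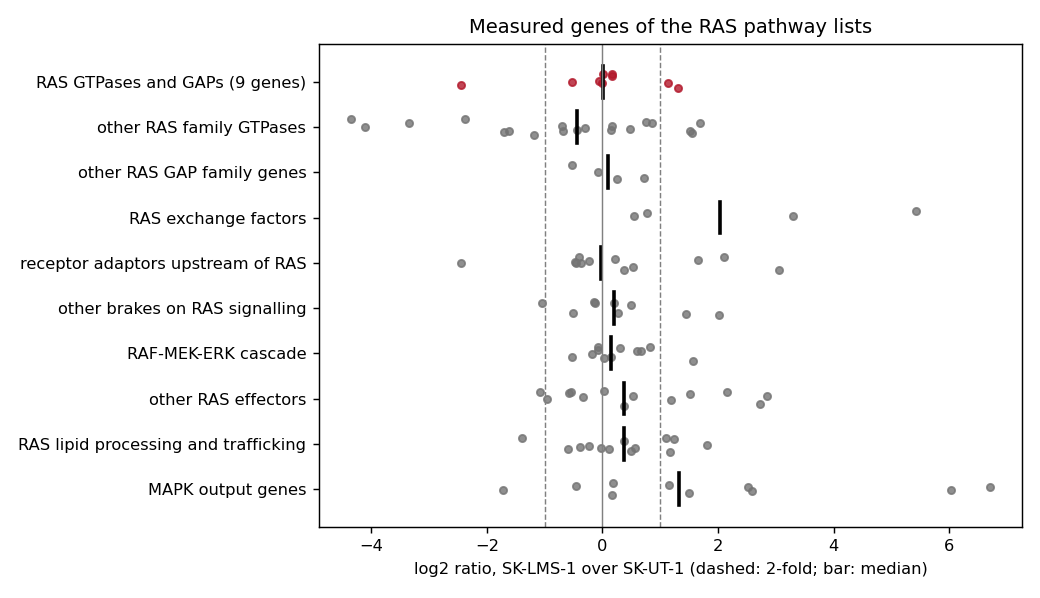
Each point is 1 measured gene, at its log2 ratio, SK-LMS-1 over SK-UT-1 (counts below 3 raised to 3, vertical scatter for display only), with the 9 RAS GTPase and GAP genes in red, the 9 pathway lists in grey, a bar at each median and dashed lines at 2-fold. The medians are 0.01 for the 9 genes, 1.32 for the MAPK output list and 2.03 for the exchange factors, of which only 4 were measured.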

How the data were processed

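DMSO-treated cells of SK-LMS-1 gave 1 total RNA library, as did those of SK-UT-1, both in 1 table. The authors deposited raw counts per gene, made with featureCounts 2.0.1 per the file headers: fragments over exons grouped by gene name, strand setting 1, UCSC annotation of hg38, with fragments counted for every overlapping gene. Exon lengths come from the same deposited table. The aligner was not given in the sources used here. A further 2 count columns match no sample and were not used. CPM used TMM library scaling (edgeR 4.0.16, R 4.3.3; factor 0.949 for the SK-LMS-1 library, 1.05 for that of SK-UT-1), so 1 count equals 0.153 CPM for SK-LMS-1, against 0.124 CPM for SK-UT-1. TPM was computed from counts and exon length. Ratios have exact 95% conditional binomial intervals and levels exact Poisson intervals (scipy 1.17.1). The procedure was tested on simulated counts.

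With 1 library per line, nothing was tested and a size rule of 2-fold was used. Members and lists were chosen with earlier results of these data known. Of each pathway list, the text names up to 2 genes per direction with the largest ratios at 2-fold or more and 5 CPM or more, and the gene with the highest TPM, together with the smooth muscle markers and the highest gene of the other marker lists. 1 gene named by this rule is not reported here. Of 140 listed genes, 2 were matched by older symbols (ERBB2IP for ERBIN, MLLT4 for AFDN). Coding ends and shared windows were read from 1 GENCODE 29 transcript per gene, which can differ in length from the counted exons. Coding sequences were aligned globally with Biopython. Alternatives were scaling by library totals, by size factors from DESeq2 1.42.0 or by edgeR's upper quartile, thinning of the deeper library, other filters, other size rules, levels without length, and the main-chromosome length of HRAS, which was chosen after seeing the data.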

Additional observations from a re-analysis of the deposited data

How the results depend on the processing

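Library totals shifted the median log2 ratio of all measured genes by -0.15 against TMM, and upper-quartile scaling by -0.13. The 9 genes' log2 ratios followed: with library totals and upper-quartile scaling, NRAS was at -0.67 and -0.65, RRAS2 at -0.14 and -0.13, RASA1 at 0.97 and 0.99, and RASAL2 at -0.16 and -0.14. The number of the 9 genes past 2-fold towards SK-LMS-1 was then 1 with either scaling, and it was 0 under a 4-fold rule and 0 where the whole interval had to pass 2-fold. These follow from the shift and from the stricter rules. NF1 counted as higher in SK-UT-1 under every alternative run. List medians changed sign for the other RAS GTPases (0.30 with no filter on low counts), the other GAP genes (-0.06 with library totals, -0.04 with upper-quartile scaling), the adaptors (0.01 with the deeper library thinned) and RAF-MEK-ERK (-0.01 with library totals). The changes with library totals and upper-quartile scaling follow from the shifts of -0.15 and -0.13. With no filter, genes with 0 counts in both lines, such as DIRAS2 and RERG, enter at 0.30, the ratio that the floor alone gives. The 0.30 of the other RAS GTPases is therefore no measured difference in expression. RASGRP4, an exchange factor gene with 0 counts in both lines, enters that list's median without a filter in the same way. The cause of the adaptors' change was not tested. Of 108 list counts, 103 stayed within 1.5 times. Of 54 list medians, 32 moved by less than 0.1 and 22 moved further or changed sign, and that of the exchange factors fell to 0.43 with no filter and 0.77 at 5 CPM or more, against 2.03. No paired analysis was possible because each line has 1 library, and no replicate could be left out. TPM from coding lengths was not run, for want of a protein table. Depth limits HRAS, RRAS and DAB2IP most, with 80 to 206 counts.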
